A study of Stylophora pistillata with 24 samples.

Results

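The 182 genes described here carry the names of the coral's TRAF, interferon and STING signalling machinery, out of 33281 genes in the count table. They were chosen by name alone: the product name had to contain TNF receptor-associated factor, tumor necrosis factor, interferon, NF-kappa-B, guanylate-binding protein, cyclic GMP-AMP synthase or myeloid differentiation, and NLR family genes were left out (0 were met). Such names stood in a table that covers 26602 genes, of which 23871 had a product name. By role, 91 were TNF receptor-associated factors (TRAFs), 29 were named after tumor necrosis factor (TNF), 17 resembled cyclic GMP-AMP synthase (cGAS), 9 resembled STING and 8 were guanylate-binding proteins (GBPs). Another 7 were named after NF-kappa-B, 5 after interferon regulatory factors (IRFs), 3 after MyD88, and 13 carried other interferon names. All are automatic homology names ("-like") and are given with the authors' gene identifiers.

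The genes were followed in Stylophora pistillata, a branching reef coral that broods its larvae (planulae). The RNA came from whole-organism tissue in 24 libraries that formed 8 groups of 3. Deep planulae and shallow planulae, and deep adults and shallow adults, were taken from the natural reef at 45 m (the mesophotic reef) and at 5 m. Translocated juveniles and control juveniles came from shallow animals and were raised in plastic settlement chambers on the reef, at 45 m or at 5 m, to an age of 8 or 60 days. No group had a stated strain or genotype, and no drug or other agent was given. No juveniles of deep origin are included. Whether a group's 3 samples were taken from separate colonies, broods or pools is not stated in the labels, so the p-values refer to the spread of these samples and part of that spread may be technical.

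In animals, TNF ligands bind TNF receptors at the cell surface, and Toll-like receptors signal through the adaptor MyD88. Both routes use TRAF proteins, which pass the signal on, many of them as ubiquitin ligases, to the transcription factor NF-kappa-B. Another route starts at cGAS, which senses DNA in the cytosol and makes a cyclic dinucleotide that activates STING at the endoplasmic reticulum, and from there the kinase TBK1 and IRFs are engaged. In vertebrates IRFs switch on interferon genes and, through them, antiviral effectors such as GBPs. Cnidarians have homologues of STING, cGAS, NF-kappa-B, IRFs and many TRAFs but no known interferons, so the word interferon in these names refers to the vertebrate relative. The pathway is of interest in corals for its part in defence and in living with algal symbionts.

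Library totals lay between 13572866 and 35778913 counts, with the smallest in deep adult replicate 3. Libraries of a group correlated at a Spearman rho of 0.883 to 0.98 per pair, lowest in deep adults. The 182 genes took 0.247% to 0.927% of each library's counts. Some libraries stood apart in these genes. In shallow planula replicate 1 several GBPs and an IRF were high, in deep planula replicate 3 several NF-kappa-B and TNF receptor genes, and in translocated 60-day replicate 3 a pair of TRAF3-like genes. Values without them are given beside the single-gene results in which leaving 1 of them out ended a call or moved the fold by over 1.5 times. Summed markers of ciliated cells (40 genes) were 7070 to 9720 counts per 1000000 (CPM) in planulae and 1300 to 2850 CPM in all later groups. Genes named as skeletal matrix proteins (71, the skeleton-forming list) summed to 737 to 985 CPM in shallow adults, against 2082 to 3478 CPM in control 60-day juveniles. Markers of gland cells (23 genes) summed to 522 to 620 CPM in shallow adults, against 290 to 463 CPM in control 60-day juveniles. In deep adults the skeleton-forming list summed to 1279 to 2163 CPM, above shallow adults and below the 2356 to 5268 CPM of translocated 60-day juveniles, and the gland list to 226 to 348 CPM, below shallow adults and below the 377 to 614 CPM of translocated 60-day juveniles. In control 8-day juveniles these lists summed to 2219 to 3454 CPM and 432 to 573 CPM, against 9084 to 9933 CPM and 338 to 350 CPM in shallow planulae. In deep planulae gland-cell markers summed to 196 to 229 CPM, below every shallow planula library. Genes named as synaptotagmin, synaptic vesicle or ELAV proteins (37, the neuron list) summed to 1388 to 1911 CPM in all groups. Genes named as vitellogenin, zona pellucida-like domain, piwi or nanos proteins (9, the germ line and egg list) summed to 520 to 926 CPM in planulae. That list summed to 4010 to 6191 CPM in translocated 8-day juveniles and 1373 to 4848 CPM in the other later groups. Its highest median was in translocated 8-day juveniles, at 5766 CPM, against 3480 CPM in deep and 2706 CPM in shallow adults, so it is not read as germ cells. The skeleton-forming list summed to 5030 to 10034 CPM in deep planulae, before settlement, and was lowest in shallow adults. All these lists rest on product names, so their sums are not read as numbers of cells. The part of cell makeup in the results below was not tested, and in such bulk samples fewer cells of a type and less RNA per cell cannot be told apart.

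Most of these genes were most abundant in adults. Of the 182, 103 had their highest group mean in adults (68 in shallow and 35 in deep adults), 40 in planulae, 26 in 60-day and 13 in 8-day juveniles. Adults held the highest mean of 8 of 9 STING-like genes, 5 of 5 IRF genes, 56 of 91 TRAFs and 11 of 17 cGAS-like genes. How many of all genes peaked in adults was not counted, so these counts do not set the genes apart. Some adult means were carried by single libraries, as in TRAF6-like gene635 with 3.36, 86.3 and 11.8 CPM in shallow adults. Per gene length the highest levels belonged to the lysosomal thiol reductase GILT (gene4349, 597 CPM per kb over all libraries), the endosomal protein LITAF (gene14457, 260 CPM per kb) and the NF-kappa-B precursor p105 (gene17453, 207 CPM per kb). A mean of at least 1 CPM over all libraries was reached by 144 genes, while 13 stayed under 1 CPM in every group.

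Many of the genes lie beside their own kind. RefSeq's order of protein-coding genes on assembly jaStyPist1.2 held 153 of the genes. Of these, 79 stood in 28 runs with no more than 2 other protein-coding genes between neighbours. The STING-like genes gene6946 to gene6952, 7 of the 9, formed 1 run, and all 3 MyD88 genes another. TRAFs made up 17 runs with 51 genes, the longest of 6. Such neighbours may be near-identical copies, and the use of strand and of shared reads in the counting is not given in the sources used here, so values of single copies are uncertain to that extent.

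The tests cover 180 of the 182 genes. A TRAF4-like gene (gene22130) and a TRAF family gene (gene7678), with 35 and 64 counts in all libraries together, were too low. A gene is called where the edgeR quasi-likelihood test gave an adjusted p under 0.05 over all 25735 genes tested, and "rose" and "fell" are used of called genes only. Values of the 3 libraries are in the order of replicates 1 to 3.

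**Figure D1:**
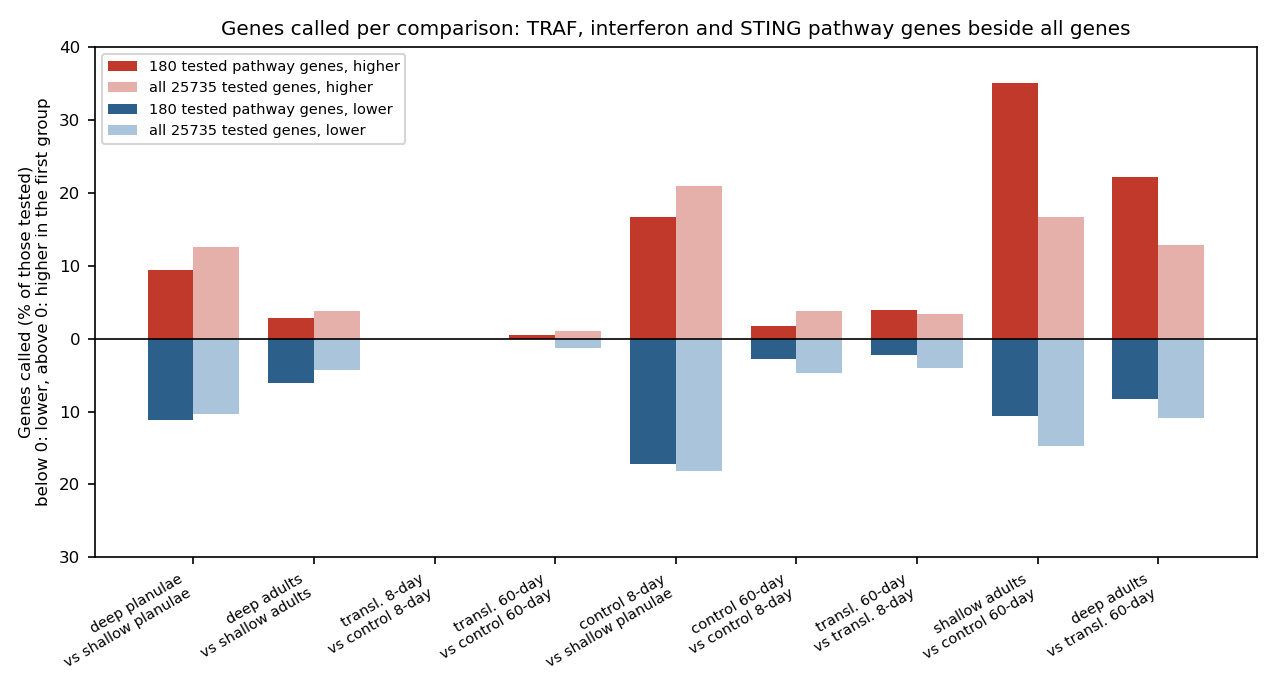
Share of genes called higher (above 0) or lower (below 0) in the first-named group of each comparison, in percent, for the 180 tested TRAF, interferon and STING pathway genes (dark bars) and for all 25735 tested genes (light bars). The pathway genes were called higher in 35% against 16.7% of all genes in shallow adults compared with control 60-day juveniles, and in 22.2% against 12.9% in deep adults compared with translocated 60-day juveniles.

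The depth difference was examined first in native planulae. Deep planulae had less RNA of most called GBP, cGAS-like, STING-like and IRF genes, and more of most called TRAFs. In all 37 of the 180 genes were called (20.6%), against 22.9% of all genes, with 17 higher and 20 lower in deep planulae, where 12.5% and 10.4% of all genes were higher and lower. By role, 4 GBPs fell and 1 rose of 8, 4 cGAS-like genes fell of 17, 2 STING-like genes fell of 9 and 2 IRF genes fell of 5, with no rise in the last 3. Of 89 TRAFs tested 10 rose and 3 fell, and of 29 TNF-named genes 6 rose and 3 fell. The share called was close to the background, so the count itself sets these genes apart in no way. The median log2 fold change was 0.11 for the 180 genes and 0.09 for all genes.

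The interferon alpha-inducible protein 27-like gene (IFI27-like, gene18568; its vertebrate relatives are small membrane proteins induced by interferon) had the smallest p of all. It was at 7.92, 5.15 and 1.64 CPM in deep planulae, against 157, 180 and 163 CPM in shallow planulae. No deep library came near a shallow one, with a log2 fold change of −5.08 (SE 0.50, adjusted p = 3.79e-06). A second gene of that name (gene20753) had 11.7, 17.3 and 41.4 CPM in deep planulae and 25.4, 22 and 17.8 CPM in shallow planulae, with overlapping groups and no call.

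GBPs are large GTPases that in mammals coat intracellular microbes. GBP2-like gene27553 had 7.65, 11.7 and 7.73 CPM in deep planulae, against 28.8, 41.8 and 30.9 CPM in shallow planulae (−1.91, SE 0.45, adjusted p = 0.00539). GBP4-like gene18985 had 3.88, 3.06 and 3.22 CPM in deep planulae, against 13.4, 9.26 and 6.61 CPM in shallow planulae (−1.53, SE 0.28, adjusted p = 0.000905). In both, every deep library was below every shallow one. The neighbouring gene10935 (GBP4-like) had 2.97, 3.16 and 1.18 CPM in deep planulae, against 55.4, 11.5 and 11.2 CPM in shallow planulae, and gene10932 (GBP7-like) 5.25, 6.96 and 5.17 CPM, against 51.4, 14.4 and 13.7 CPM. Both fell (−3.41, SE 0.85, and −2.19, SE 0.55; adjusted p = 0.00739 and 0.00777), and both were high in shallow replicate 1. Without that library their log2 fold changes were −2.21 and −1.28 and their adjusted p 0.0522 and 0.0731, so neither was called. GBP6-like gene21949 went the other way, at 29.4, 37.6 and 19.9 CPM in deep planulae and 0, 0 and 0.159 CPM (2 counts in all) in shallow planulae. The ratio was 597, with a 95% counting interval of 165 to 4930, and adjusted p = 0.00201.

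STING-like gene6952 had 0.723, 0.418 and 0.972 CPM in deep planulae, against 2.04, 2.73 and 3.34 CPM in shallow planulae (−1.94, SE 0.45, adjusted p = 0.00497). STING-like gene6986 had 5.4, 5.01 and 4.25 CPM in deep planulae, against 8.46, 12.9 and 14.9 CPM in shallow planulae (−1.31, SE 0.37, adjusted p = 0.0157). The other 7 STING-like genes were not called. The call of gene6986 was lost without deep replicate 3 (adjusted p = 0.057), shallow replicate 2 (0.0507) or shallow replicate 3 (0.0724). Among cGAS-like genes, gene18849 had 3.39, 3.85 and 3.02 CPM in deep planulae, against 4.91, 7.66 and 7.49 CPM in shallow planulae (−0.97, SE 0.27, adjusted p = 0.015), and gene14628 had 0.152, 0.418 and 0.461 CPM, against 6.04, 2.46 and 4.7 CPM (−3.68, SE 1.28, adjusted p = 0.0435). Neither call held in every alternative. That of gene18849 was lost without deep replicate 3 (adjusted p = 0.0549) or shallow replicate 2 (0.0652) or 3 (0.0597), and that of gene14628 without any 1 of the 6 libraries (0.0589 to 0.137). The other 2 cGAS-like genes that fell, gene14677 (−1.78, SE 0.58, adjusted p = 0.0334) and gene25147 (−3.81, SE 1.33, adjusted p = 0.0452), also lost their calls, gene14677 without deep replicate 1 (0.13) or 2 (0.102) or shallow replicate 1 (0.0728) or 3 (0.0949) and gene25147 without any 1 library except shallow replicate 1 (0.0947 to 0.116), so no cGAS-like call held under every alternative.

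IRFs are the transcription factors at the end of this route. The neighbouring genes gene23173 (IRF2-like) and gene23172 (IRF4-like) both fell. IRF2-like gene23173 had 6.7, 9.93 and 21.2 CPM in deep planulae, against 27.6, 25.3 and 23.7 CPM in shallow planulae (−1.02, SE 0.28, adjusted p = 0.0134, and 0.0594 or 0.0673 without deep replicate 1 or 2; the log2 fold change was −1.62 without deep replicate 3). IRF4-like gene23172 had 4.41, 4.69 and 3.84 CPM in deep planulae, against 43.2, 5.39 and 7.56 CPM in shallow planulae (−2.12, SE 0.71, adjusted p = 0.0368). Its size rests on shallow replicate 1, without which the log2 fold change was −0.58 and adjusted p was 0.535, and the call was also lost without any 1 of the 3 deep libraries (0.0873 to 0.0976).

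Among the TRAFs, TRAF6-B-like gene11244 had the smallest p, with 35, 33.7 and 56.4 CPM in deep planulae, against 6.04, 2.53 and 6.61 CPM in shallow planulae (3.04, SE 0.33, adjusted p = 9.88e-06). TRAF6-like gene18741 changed in the other direction, at 2.59, 3.9 and 4.55 CPM in deep planulae and 16.5, 17.2 and 14.9 CPM in shallow planulae (−2.14, SE 0.39, adjusted p = 0.00084). Genes of 1 TRAF name thus moved both ways. TRAF2-like genes did so too. TRAF2-like gene7588 had 25.2, 32.5 and 52 CPM in deep planulae, against 14.4, 12.8 and 13.8 CPM in shallow planulae (1.42, SE 0.26, adjusted p = 0.001), and gene20005 rose by 1.83 (SE 0.47, adjusted p = 0.00912). TRAF2-like gene20003 had 1.52, 1.44 and 2.56 CPM in deep planulae, against 16.4, 4.06 and 7.64 CPM in shallow planulae (−2.35, SE 0.52, adjusted p = 0.00337; log2 fold change −1.67 without shallow replicate 1). TRAF3-like gene19834 rose, with 42, 60.6 and 114 CPM in deep planulae, against 14.7, 8.39 and 13.9 CPM in shallow planulae (2.55, SE 0.61, adjusted p = 0.00594), and TRAF4-like gene2455 fell, at 51.8, 94.6 and 104 CPM against 140, 208 and 219 CPM (−1.18, SE 0.27, adjusted p = 0.00411). None of these TRAF calls was lost under any of the 12 alternatives. TRAF3-like gene7677 and gene22825 also rose (3.67, SE 1.29, and 2.47, SE 0.84; adjusted p = 0.0454 and 0.0395), but gene7677 lost its call without any 1 library (0.0586 to 0.13) and gene22825 without any 1 except deep replicate 1 (0.0601 to 0.12).

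**Figure D2:**
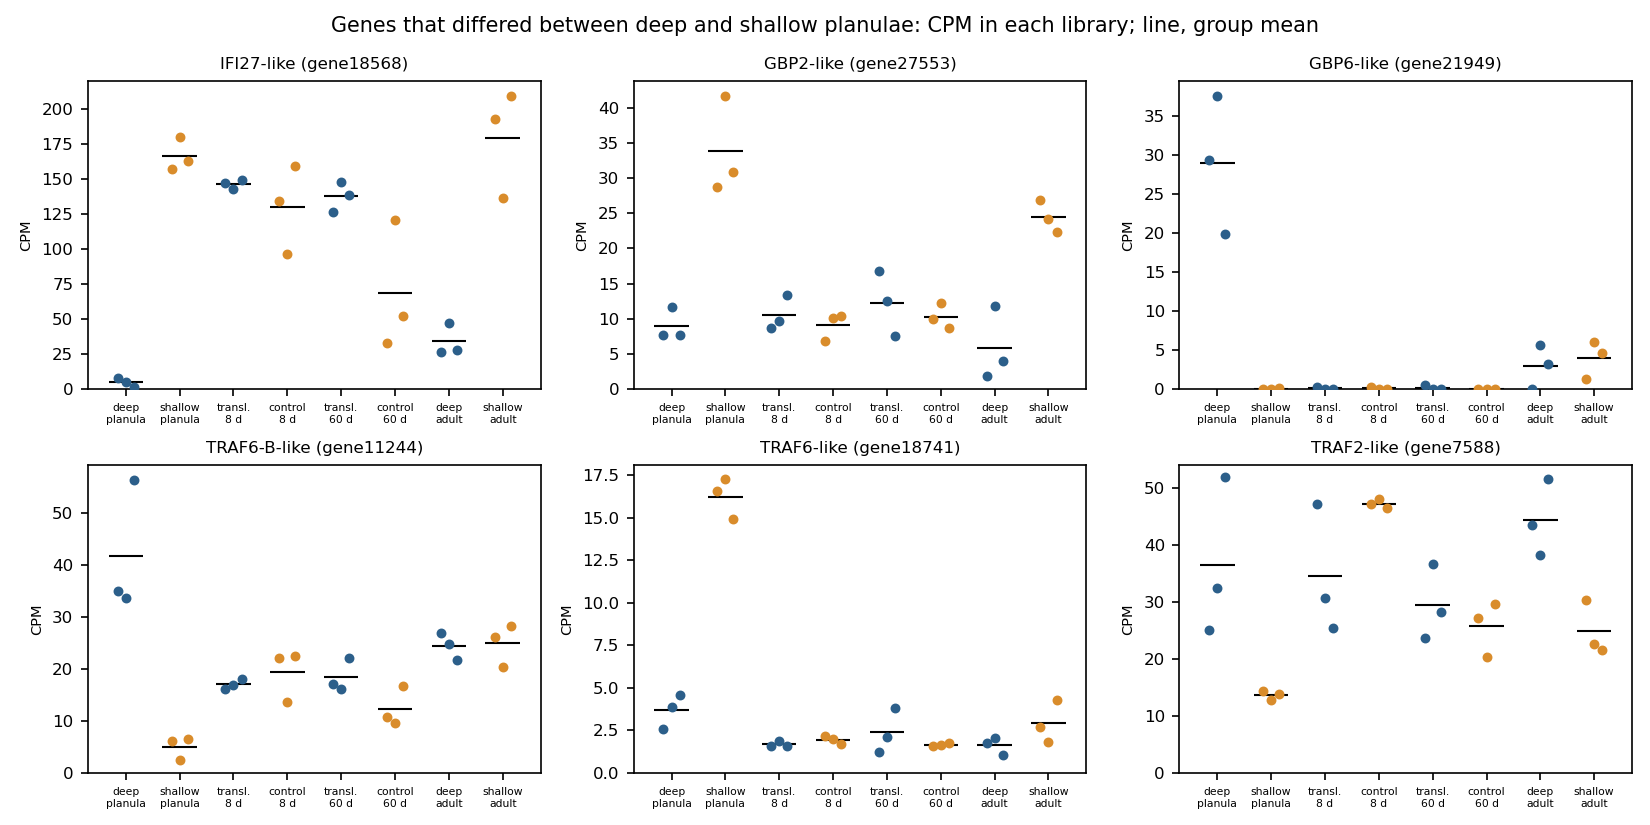
CPM of 6 genes in each of the 24 libraries (points) by group, with group means (lines); blue, planulae and adults of 45 m and translocated juveniles; orange, planulae and adults of 5 m and control juveniles. IFI27-like gene18568 lay at 1.64 to 7.92 CPM in deep planulae and at 157 to 180 CPM in shallow planulae, and GBP6-like gene21949 reached 19.9 to 37.6 CPM in deep planulae and no more than 0.159 CPM in shallow planulae.

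Receptors and downstream proteins of the TNF route were mixed. TNF receptor 16-like genes, named after the vertebrate neurotrophin receptor p75, rose in 3 cases. TNF receptor 16-like gene13490 had 15.6, 18.8 and 18.1 CPM in deep planulae, against 11.6, 7.79 and 7.25 CPM in shallow planulae (0.98, SE 0.21, adjusted p = 0.00324). TNF receptor 16-like gene26730 had 1.56, 2.41 and 2.05 CPM in deep planulae, against 0.68, 0.2 and 0.398 CPM in shallow planulae (2.23, SE 0.56, adjusted p = 0.00829). TNF receptor 16-like gene24560 had 54.8, 60.2 and 398 CPM in deep planulae, against 37.4, 21.8 and 27.9 CPM in shallow planulae (2.56, SE 0.55, adjusted p = 0.0029), so that deep replicate 3 stood far above the other 2. Without that library gene24560 was still called, but its log2 fold change was 0.99. The TNF-alpha-induced protein 3-like gene (gene7543), named after A20, a deubiquitinase that restrains NF-kappa-B, had 31.5, 46.7 and 266 CPM in deep planulae and 54.2, 23.4 and 31.5 CPM in shallow planulae. It was called (1.66, SE 0.54, adjusted p = 0.0315), the groups overlapped, and without deep replicate 3 adjusted p was 0.866, without shallow replicate 2 or 3 0.128 or 0.103.

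In the same deep replicate 3 the NF-kappa-B p105-like genes gene17453 and gene10345 were at 428 and 294 CPM, against 163 and 198 CPM, and 85 and 108 CPM, in the other deep libraries, and neither was called. The NF-kappa-B inhibitor-interacting Ras-like protein 2 (gene1465) fell, with 23.5, 22.4 and 29.7 CPM in deep planulae, against 43.1, 69.4 and 47.6 CPM in shallow planulae (−1.08, SE 0.23, adjusted p = 0.00269). Of the LITAF genes, endosomal proteins named after their induction by lipopolysaccharide in mammals, gene5434 had 24.6, 28.6 and 29.6 CPM in deep planulae, against 59, 61.3 and 56.4 CPM in shallow planulae (−1.09, SE 0.19, adjusted p = 0.000657). LITAF gene14457, the most abundant LITAF gene per length, fell by 0.67 (SE 0.17, adjusted p = 0.00798), while gene4210 rose by 0.56 (SE 0.16, adjusted p = 0.0163, lost without deep replicate 3 at 0.0683 and without shallow replicate 1 at 0.0762). None of the 3 MyD88 genes was called.

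Other genes of these routes, listed by name as Toll-like receptors, kinases, helicases, caspase adaptors, inhibitors of apoptosis and the like (35 genes), were called 6 times in planulae, 3 higher and 3 lower. Of all genes 12.5% were higher and 10.4% lower. The smallest p belonged to a baculoviral IAP repeat protein (gene1755), an apoptosis inhibitor, at 15 ± 1.12 CPM in deep planulae and 53.7 ± 11.3 CPM in shallow planulae (−1.84, SE 0.34, adjusted p = 0.000893; mean ± SD, n = 3 libraries each). Toll-like receptor 6 (gene2724), a sensor of microbial lipoproteins in mammals, rose by 1.82 (SE 0.45, adjusted p = 0.00684).

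Between deep and shallow adults 16 of the 180 genes were called (8.89%), a share close to the 8.11% of all genes. Of these 5 were higher (2.78%) and 11 lower (6.11%) in deep adults, where 3.77% and 4.33% of all genes were higher and lower. The medians were −0.15 for the 180 and 0.00 for all genes. Those that fell included 2 GBPs, 1 STING-like, 1 cGAS-like, 1 MyD88 gene and 3 TRAFs, and the 5 that rose were 3 TNF-named genes and 2 TRAFs. The count was 28 with DESeq2 and 9 without shallow adult replicate 2, and with only the 6 adult libraries fitted it was 3, among them the 2 genes given next.

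IFI27-like gene18568 fell in adults too, at 26.4, 47.2 and 28.1 CPM in deep adults and 193, 136 and 209 CPM in shallow adults (−2.40, SE 0.44, adjusted p = 0.00213). TRAF4-like gene21127 was at 14.4, 8.87 and 7.96 CPM in deep adults, against 0.028, 0.057 and 0.0695 CPM in shallow adults (7.54, SE 1.48, adjusted p = 0.00446). TRAF4-like gene21127 was low in every juvenile library, where the highest value was 0.999 CPM (27 counts in translocated 8-day replicate 2). It had 41, 28 and 34 counts in deep planulae and 0, 0 and 6 counts in shallow planulae, and was not called there.

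The other calls were not made with only the 6 adult libraries fitted. GBP2-like gene27553 had 1.79, 11.8 and 3.98 CPM in deep adults, against 26.9, 24.2 and 22.4 CPM in shallow adults (−2.05, SE 0.45, adjusted p = 0.00868, and 0.189 with only adults fitted). The cGAS-like gene23497 had 4.02, 3.61 and 2.52 CPM in deep adults, against 9.89, 10.7 and 12 CPM in shallow adults (−1.68, SE 0.35, adjusted p = 0.00598, and 0.0505 with only adults fitted). The adaptor MyD88 (gene17667) had 28.1, 23.6 and 16.2 CPM in deep adults, against 42.5, 46.2 and 36.1 CPM in shallow adults (−0.87, SE 0.19, adjusted p = 0.00869, and 0.144 with only adults fitted). In each of these the groups did not overlap. The TNF-like ligand (gene11610) had 4.24, 2.51 and 2.76 CPM in deep adults, against 0.0841, 0.285 and 0.417 CPM in shallow adults (3.58, SE 0.80, adjusted p = 0.00885, and 0.055 with only adults fitted). TNF receptor 4-like gene17839 had 2.77, 0.527 and 0.975 CPM in deep adults, against 0.252, 0.114 and 0.174 CPM in shallow adults (2.95, SE 0.61, adjusted p = 0.00547, and 0.125 with only adults fitted). Deep replicate 1 was the highest, and without it the log2 fold change was 2.003. For GBP2-like gene27553 it was −3.10 without deep replicate 2.

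Less firm were STING-like gene6952, at 2.23, 3.73 and 0.894 CPM in deep adults and 5.97, 6.67 and 6.18 CPM in shallow adults (−1.44, SE 0.43, adjusted p = 0.0441), and GBP4-like gene18985, at 12, 12.6 and 8.04 CPM against 23.2, 18.9 and 20.4 CPM (−0.94, SE 0.27, adjusted p = 0.0383). Each lost its call without any 1 of 5 of the 6 libraries, at adjusted p of 0.0798 to 0.142 for gene6952 and 0.0659 to 0.142 for gene18985; deep replicate 2 was the exception for both. The PKR activator-like gene13116 (−1.14, SE 0.33, adjusted p = 0.0395) lost it without deep replicate 1 (0.0712) or 3 (0.137) or shallow replicate 1 (0.0561) or 2 (0.179), and the NF-kappa-B-activating protein-like gene15682 (−0.68, SE 0.17, adjusted p = 0.0158) without deep replicate 1 (0.0625) or shallow replicate 1 (0.0551) or 2 (0.0523). TRAF6-like gene19608 had no count in deep adults and 1.65, 0.684 and 1.91 CPM in shallow adults, at least 8.04-fold lower at depth against a floor of 3 counts per library, and TRAF6-like gene3400 had no count in shallow adults and 0.0544, 3.65 and 0.162 CPM in deep adults, at least 14.1-fold higher on the mean but carried by deep replicate 2 (adjusted p = 0.134 without it, and 0.0542 or 0.0545 without shallow replicate 1 or 2). The other TRAFs that fell were TRAF1-like gene26577, with 1 count in deep and 112 counts in shallow adults, and TRAF3-like gene2453 (−1.49, SE 0.45, adjusted p = 0.0453). TRAF1-like gene26577 lost its call without deep replicate 1 (0.106) or 2 (0.0844) or shallow replicate 2 (0.126), and gene2453 without any 1 library except deep replicate 1 (0.0686 to 0.145). None of the IRF genes was called between adults of the 2 depths. Of the 35 other route genes 4 fell and none rose, where 4.33% and 3.77% of all genes fell and rose. The RIG-I-like helicase DDX58 (gene23560), an RNA sensor, was at 13.7 ± 2.31 CPM in deep adults and 39.5 ± 5.2 CPM in shallow adults (−1.52, SE 0.37, adjusted p = 0.0144).

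The authors' deposited table holds their own adult comparison. Of the 176 genes with a value in both, the authors' deposited table calls 20 and the edgeR test 15, and 14 of these genes were called by both, each in the same direction.

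Both in planulae and in adults 5 of the 180 genes were called in the same direction (2.78%), against 1.95% of all genes, and none was called in opposite directions: IFI27-like gene18568, GBP2-like gene27553, GBP4-like gene18985 and STING-like gene6952 were lower at 45 m, and TNF receptor 16-like gene26730 was higher, with 0.979, 0.891 and 2.27 CPM in deep adults and 0.336, 0.314 and 0.313 CPM in shallow adults (2.07, SE 0.55, adjusted p = 0.0247). The adult call of gene26730 was lost without deep replicate 3 (0.122) or any 1 shallow library (0.0669 to 0.0845). The planula and the adult comparison have no library in common.

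The depth difference itself was then compared between adults and planulae. It differed in 13 of 180 genes (7.22%), against 12.9% of all genes, 6 in the direction of a higher and 7 of a lower value in adults than in planulae (6.35% and 6.59% of all genes). The count was 8 without shallow planula replicate 3. TRAF6-B-like gene11244 had the smallest p. It rose in deep planulae, whereas deep adults had 26.9, 24.8 and 21.6 CPM and shallow adults 26.1, 20.3 and 28.3 CPM, with overlapping groups. The difference of the depth effects was −3.07 on the log2 scale (SE 0.44, adjusted p = 0.000404).

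Translocation was the experimental part of the study: juveniles of shallow origin were raised at 45 m or at 5 m. At 8 days 0 of the 180 genes were called (0.00389% of all genes, which is 1 gene). DESeq2 called 0 as well. In edgeR 15 of the 180 genes had an unadjusted p under 0.05, as did 1397 of all 25735 genes. Of the 15, 14 were higher in translocated juveniles, and the direction was not counted over all genes. The median was 0.05 for the 180 genes and −0.03 for all genes. IFI27-like gene18568, so low in deep planulae, had 147, 142 and 149 CPM in translocated 8-day juveniles and 134, 96.6 and 159 CPM in control 8-day juveniles. GBP2-like gene27553 had 8.61, 9.62 and 13.4 CPM in translocated 8-day juveniles and 6.81, 10.1 and 10.3 CPM in control 8-day juveniles, and in both genes the groups overlapped.

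At 60 days 1 of the 180 genes was called (0.556%), against 2.36% of all genes, and it was higher in translocated juveniles, as 1.08% of all genes were. TRAF6-like gene11931 had 4.04, 13.6 and 10.4 CPM in translocated 60-day juveniles, against 1.73, 2.01 and 1.4 CPM in control 60-day juveniles (2.44, SE 0.43, adjusted p = 0.004). A fit of the 60-day libraries alone gave no call (adjusted p = 0.128). The count of called genes was 3, 4 and 3 without translocated replicate 1, 2 and 3, 2 without control replicate 2, and 13 with DESeq2. IFI27-like gene18568 had 126, 148 and 138 CPM in translocated 60-day juveniles and 32.9, 120 and 51.9 CPM in control 60-day juveniles, higher in every translocated library but not called.

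TRAF3-like gene15027 showed how far single libraries can go at this age, with 28.8, 77.5 and 2196 CPM in translocated 60-day juveniles and 63.1, 28.6 and 64.2 CPM in control 60-day juveniles. Its relative gene15029 was at 7.19, 62.1 and 597 CPM in translocated 60-day juveniles and 34.3, 36.3 and 27.1 CPM in control 60-day juveniles. Neither was called, and replicate 3 of the translocated group alone was high in both. All TRAFs together summed to 3542 CPM in that library, against 880 and 946 CPM in the other translocated and 708 to 911 CPM in the control 60-day libraries. The effect of translocation differed between 60 and 8 days in 0 of 180 genes (0.0777% of all genes, 0.0350% higher and 0.0427% lower), with 1 called by DESeq2. In edgeR 12 of the 180 had an unadjusted p under 0.05, as did 1786 of all 25735 genes.

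The next comparisons follow age. From shallow planulae to control 8-day juveniles 61 of 180 genes were called (33.9%), against 39.0% of all genes, 30 higher and 31 lower in the juveniles (21.0% and 18.1% of all genes). This step goes from the swimming larva on the natural reef to the settled polyp in a chamber, and the effects of age and of rearing cannot be told apart. Of 89 TRAFs 19 rose and 10 fell, while of the 5 IRF genes 3 fell and none rose, and of 8 GBPs 2 fell and none rose. All 3 IRF calls were lost without some single libraries: IRF2-binding gene11678 without the juvenile replicate 1 (0.0663) or 2 (0.104) or the planula replicate 1 (0.0865) or 2 (0.0659), IRF2-like gene23173 without the juvenile replicate 2 (0.0784) or 3 (0.0772) or the planula replicate 1 (0.0692) or 2 (0.0561), and IRF2-like gene20630 without the juvenile replicate 3 (0.0941) or the planula replicate 1 (0.0504). Of the GBPs, gene27553 kept its call (−1.90, SE 0.45, adjusted p = 0.00221). GBP4-like gene10935 had 5.94, 5.6 and 5.71 CPM in control 8-day juveniles, against 55.4, 11.5 and 11.2 CPM in shallow planulae (−2.18, SE 0.79, adjusted p = 0.0353). Without shallow planula replicate 1 its log2 fold change was −0.97 (adjusted p = 0.348), and the call was also lost without any 1 juvenile library (0.0855 to 0.0934). TRAF5-like gene9017 had 7.07, 7.27 and 6.41 CPM in control 8-day juveniles, against 0.227, 0.599 and 0.398 CPM in shallow planulae (4.05, SE 0.61, adjusted p = 2.91e-05). TRAF3-like gene19615 rose by 2.82 (SE 0.50, adjusted p = 0.000149), and TRAF4-like gene2455 had 27.6, 30.1 and 30.2 CPM in control 8-day juveniles, against 140, 208 and 219 CPM in shallow planulae (−2.69, SE 0.28, adjusted p = 4.31e-07).

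Of the 29 TNF-named genes 8 rose and 7 fell. TNF receptor 16-like gene22087 had 45.6, 46.3 and 42.4 CPM in control 8-day juveniles, against 12.4, 10.2 and 6.77 CPM in shallow planulae (2.19, SE 0.24, adjusted p = 6.67e-07), and its relative gene13490 rose by 2.07 (SE 0.22, adjusted p = 4.68e-07). The ligand named after TNF superfamily member 10 (TRAIL, a death ligand in vertebrates; gene1262) had 19, 18.6 and 13.4 CPM in control 8-day juveniles, against 4.76, 1.47 and 1.11 CPM in shallow planulae (2.80, SE 0.63, adjusted p = 0.0015; log2 fold change 3.72 without shallow planula replicate 1). TNF receptor 23-like gene17072 fell, at 9.6, 12 and 18.5 CPM against 115, 67.3 and 67 CPM (−2.63, SE 0.34, adjusted p = 6.06e-06). STING-like gene6986 had 3.11, 3.35 and 2.38 CPM in control 8-day juveniles, against 8.46, 12.9 and 14.9 CPM in shallow planulae (−2.04, SE 0.38, adjusted p = 0.000252). Interferon-inducible GTPase 5-like gene7858 had 1.39, 2.31 and 1.7 CPM in control 8-day juveniles, against 11.8, 4.73 and 29.9 CPM in shallow planulae (−3.10, SE 0.87, adjusted p = 0.00809, with −2.19 and 0.0645 without shallow planula replicate 3).

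Control 60-day against control 8-day juveniles gave 8 called genes (4.44%, against 8.51% of all genes), 3 higher and 5 lower (3.83% and 4.69% of all genes), and translocated 60-day against translocated 8-day juveniles gave 11 (6.11%, against 7.41%), 7 higher and 4 lower (3.38% and 4.03%). In controls the count was 4 without the 60-day replicate 3 and 5 without the 60-day replicate 1 or the 8-day replicate 2 or 3, but 14 with DESeq2 and 16 with only the 6 libraries fitted. In translocated juveniles it was 5 without the 60-day replicate 1 or the 8-day replicate 2 or 3, and 7 without the 8-day replicate 1, 6 with only the 6 libraries fitted and 19 with DESeq2. The comparisons have no library in common and shared 4 called genes (2.22%, against 3.88% of all genes), 2 higher and 2 lower at 60 days in both. LITAF gene11470 had 385, 394 and 382 CPM in control 60-day juveniles, against 86, 82.6 and 65.8 CPM in control 8-day juveniles (2.31, SE 0.24, adjusted p = 1.01e-05), and 365, 308 and 400 CPM in translocated 60-day juveniles, against 99.7, 144 and 161 CPM in translocated 8-day juveniles (1.41, SE 0.23, adjusted p = 0.00125). STING-like gene3969 fell in both, at 0.779, 0.564 and 0.311 CPM in control 60-day juveniles, against 2.34, 3.82 and 2.25 CPM in control 8-day juveniles (−2.32, SE 0.41, adjusted p = 0.00131), and by 1.69 in translocated juveniles (SE 0.41, adjusted p = 0.0148, and 0.0794 or 0.0587 without the 60-day or the 8-day replicate 1). The other shared genes were cGAS-like gene23497, higher, and TRAF4-like gene13905, lower at 60 days. In controls gene23497 lost its call without any 1 library (adjusted p = 0.0649 to 0.176) and gene13905 without the 60-day replicate 3 (0.0532), and in translocated juveniles gene23497 lost it without the 60-day replicate 2 (0.0513) or the 8-day replicate 2 (0.0562) or 3 (0.0596). In translocated juveniles the very large interferon-induced GTPase 1-like gene20343 had 41.1, 12.7 and 7.27 CPM at 60 days and 0.622, 0 and 0.135 CPM at 8 days (6.23, SE 1.62, adjusted p = 0.0231). The log2 fold change was 8.22 without the 8-day replicate 1. This call did not hold without the 60-day replicate 1 (5.21, adjusted p = 0.0814) or the 8-day replicate 2 (0.0985) or 3 (0.106).

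Of the 9 comparisons of 2 groups, the step from control 60-day juveniles to shallow adults had the most calls. In shallow adults against control 60-day juveniles 82 of 180 genes were called (45.6%), against 31.4% of all genes. Of these 63 were higher (35%, against 16.7% of all genes) and 19 lower (10.6%, against 14.7%). The median log2 fold change was 0.83 for the 180 genes and 0.03 for all genes, and with DESeq2 size factors, which move the median of all genes to 0.12, 69 were higher and 17 lower. In deep adults against translocated 60-day juveniles 55 were called (30.6%, against 23.8%), 40 higher (22.2%, against 12.9%) and 15 lower (8.33%, against 10.9%), with medians of 0.42 and 0.07. This count was 32 without translocated replicate 2 and 18 with only the 6 libraries fitted. The comparisons have no library in common. Higher in both were 32 genes (17.8%, against 6.85% of all genes), which is 50.8% of those higher in shallow adults and 80% of those higher in deep adults. Over all genes these shares were 41.1% and 53.2%. Lower in both were 6 genes (3.33%, against 5.32% of all genes), and 1 changed in opposite directions. Adults came from the natural reef and juveniles from chambers, and deep adults also differ from translocated juveniles in depth of origin, so age, rearing and origin cannot be told apart.

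**Figure D3:**
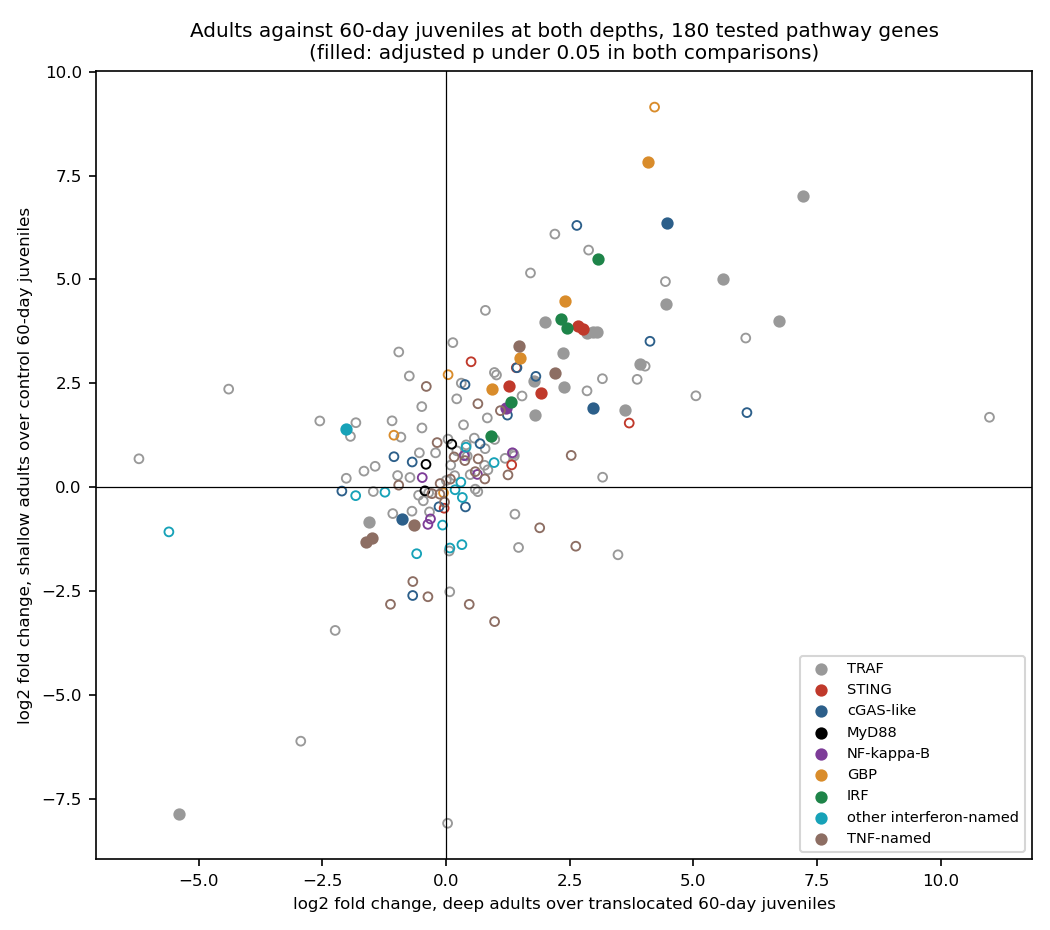
Log2 fold change of the 180 tested genes in shallow adults over control 60-day juveniles (vertical axis) and in deep adults over translocated 60-day juveniles (horizontal axis), coloured by role; filled points were called in both comparisons. Of the filled points 32 lie in the upper right and 6 in the lower left; fitted values of genes with 0 to 3 counts in a group depend on the fit's prior count.

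All 5 IRF genes rose in both comparisons. IRF4-like gene23172 had 157, 172 and 282 CPM in shallow adults, against 4.64, 6.17 and 2.7 CPM in control 60-day juveniles (5.49, SE 0.80, adjusted p = 7.25e-05), and 103, 94.3 and 60 CPM in deep adults, against 19.1, 5.52 and 6 CPM in translocated 60-day juveniles (3.07, SE 0.72, adjusted p = 0.00477). Its neighbour gene23173 (IRF2-like) had 49.3, 59.5 and 59.6 CPM in shallow adults, against 12.2, 14.6 and 14.1 CPM in control 60-day juveniles (2.04, SE 0.29, adjusted p = 4.63e-05), and rose by 1.31 (SE 0.28, adjusted p = 0.00266) in deep adults. IRF1-like gene12147 had 12.8, 15.3 and 17.4 CPM in shallow adults, against 1.86, 0.721 and 0.571 CPM in control 60-day juveniles (3.83, SE 0.55, adjusted p = 6.14e-05), and rose by 2.45 (SE 0.52, adjusted p = 0.00249) in deep adults. Without control replicate 1 the shallow-adult value of gene12147 was 4.53, and without translocated replicate 1 the deep-adult values of gene23172 and gene20630 were 3.90 and 3.28. The genes gene23172, gene23173 and gene12147 kept their calls in both comparisons under all 12 alternatives. IRF2-like gene20630 rose by 4.04 (SE 0.54, adjusted p = 2.74e-05) in shallow and by 2.33 (SE 0.50, adjusted p = 0.0025) in deep adults, and the IRF2-binding protein-like gene11678 by 1.22 (SE 0.24, adjusted p = 0.00115) and 0.91 (SE 0.24, adjusted p = 0.0107). In deep adults these 2 were not called with only the 6 libraries fitted (0.0641 and 0.153), and gene11678 also lost its call without translocated replicate 1 or 2 (0.0555 and 0.0663).

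**Figure D4:**
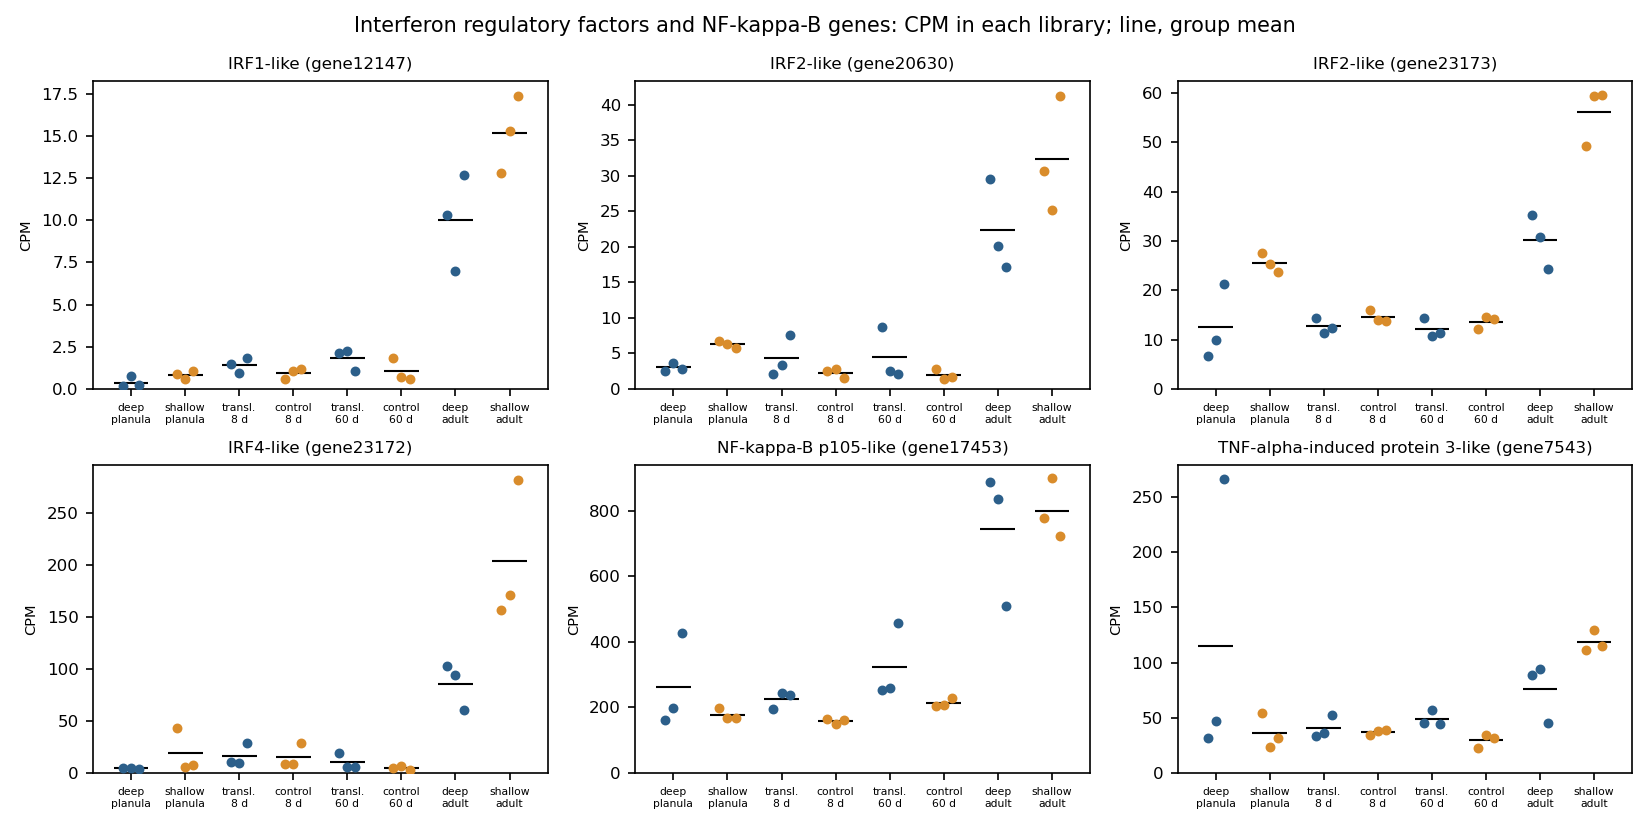
CPM of 4 IRF genes, NF-kappa-B p105-like gene17453 and A20-like gene7543 in each of the 24 libraries (points) by group, with group means (lines); blue, 45 m or translocated; orange, 5 m or control. IRF4-like gene23172 lay at 60 to 282 CPM in adults and at 2.7 to 43.2 CPM elsewhere, and p105-like gene17453 at 508 to 900 CPM in adults and at 149 to 458 CPM elsewhere.

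STING-like genes rose in 6 of 9 cases in shallow adults and in 5 of 9 in deep adults, with none falling. STING-like gene3969 stands outside the run of 7. It had 7.96, 6.02 and 9.52 CPM in shallow adults, against 0.779, 0.564 and 0.311 CPM in control 60-day juveniles (3.80, SE 0.44, adjusted p = 6.49e-06), and 10.3, 6 and 4.47 CPM in deep adults, against 0.608, 1.35 and 1.09 CPM in translocated 60-day juveniles (2.76, SE 0.42, adjusted p = 0.000124). STING-like gene6947 had 11.8, 12.6 and 11.4 CPM in shallow adults, against 0.779, 1.35 and 0.26 CPM in control 60-day juveniles (3.88, SE 0.70, adjusted p = 0.00047), and rose by 2.67 (SE 0.67, adjusted p = 0.00718) in deep adults, where replicate 3 was at 2.27 CPM beside 10.4 and 10.9 CPM. Without control replicate 2 its shallow-adult value was 4.48. STING-like gene6950 rose by 2.25 (SE 0.49, adjusted p = 0.00224) and 1.92 (SE 0.49, adjusted p = 0.00838), and gene6952 by 2.42 (SE 0.44, adjusted p = 0.000556) and 1.27 (SE 0.44, adjusted p = 0.0435).

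Neighbours within the STING run differed from each other. STING-like gene6951 had 5.22, 7.13 and 1.95 CPM in deep adults, against 0.553, 0.47 and 0.0606 CPM in translocated 60-day juveniles (3.70, SE 0.82, adjusted p = 0.0032), but 0.14, 0.77 and 1.91 CPM in shallow adults and no call there. STING-like gene6949 and gene6946 rose in shallow adults (2.87, SE 0.80, and 3.02, SE 0.76; adjusted p = 0.011 and 0.00592), gene6946 with 31.3 CPM in replicate 3 beside 4.23 and 6.22 CPM (1.61, adjusted p = 0.083 without it), and gene6949 lost its call without control replicate 1 (0.0505) and was at 3.51 without control replicate 3. STING-like gene6948 was not called in any comparison, and gene6986, highest in shallow planulae, was not called here. With only the 6 libraries fitted, the calls of gene6947, gene6950 and gene6952 in deep adults were lost (adjusted p = 0.0827, 0.064 and 0.263), and that of gene6952 was also lost without any 1 library except deep replicate 3 (0.0636 to 0.278).

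**Figure D5:**
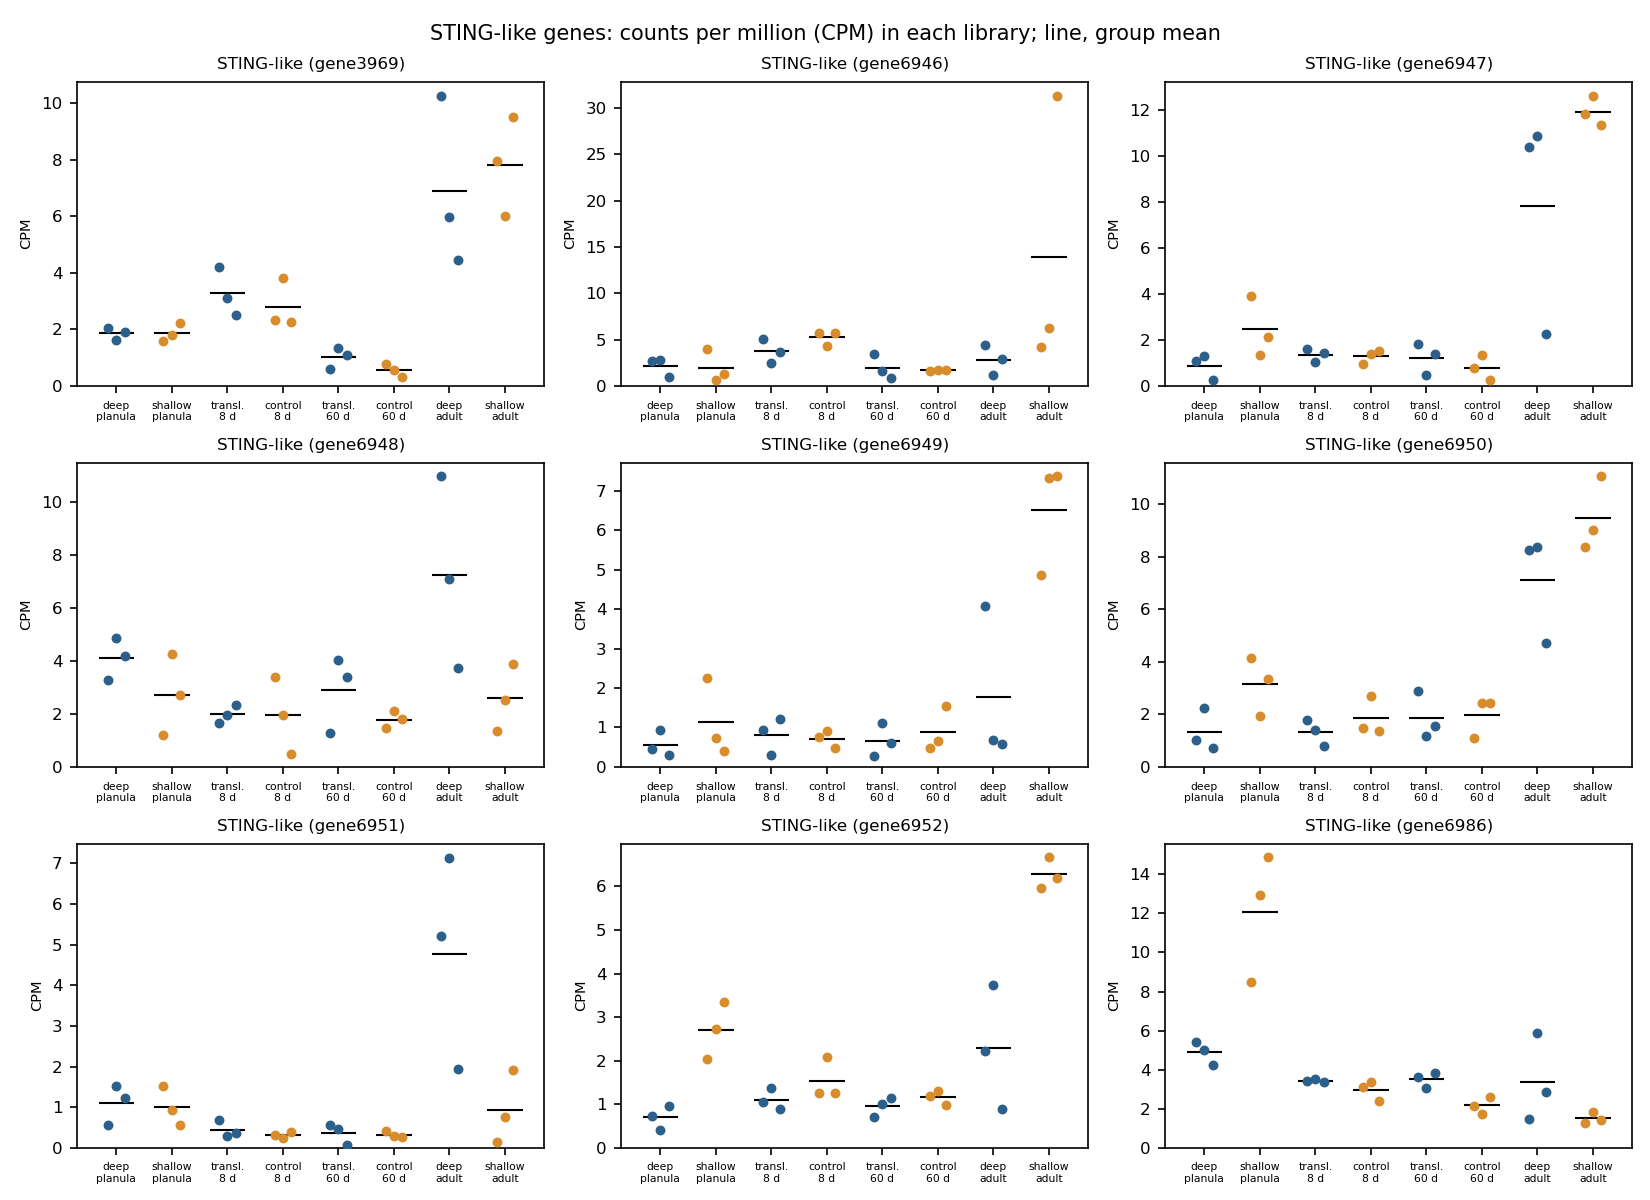
CPM of the 9 STING-like genes in each of the 24 libraries (points) by group, with group means (lines); blue, 45 m or translocated; orange, 5 m or control. STING-like gene3969 lay at 4.47 to 10.3 CPM in adults and at 0.311 to 4.19 CPM elsewhere, while gene6986 was highest in shallow planulae at 8.46 to 14.9 CPM.

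The cGAS-like genes, the upstream sensors, moved less evenly: 4 of 17 rose and 2 fell in shallow adults, and 3 rose and 2 fell in deep adults. Of the rises in shallow adults, gene14630 lost its call in 9 of the 12 alternatives, gene21213 in 8 and gene14677 in 4. Of the deep-adult rises, gene14673 lost its call in 7 and gene25146 in 4, while gene14677 kept it in all 12. The genes that fell in deep adults, gene18849 and gene23497, lost their calls in 5 each. cGAS-like gene25146 rose in shallow adults, at 1.65, 3.39 and 10.4 CPM against 0, 0.157 and 0 CPM in control 60-day juveniles (6.35, SE 1.36, adjusted p = 0.00193). It was 5.33 without shallow adult replicate 3 and 9.95 without control replicate 2, the control library that holds all of its counts. cGAS-like gene18849 fell, at 4.82, 7.9 and 7.82 CPM in shallow adults and 10.4, 13.6 and 11.1 CPM in control 60-day juveniles (−0.77, SE 0.27, adjusted p = 0.0331, and 0.112, 0.0624 or 0.152 without control replicate 2, control replicate 3 or shallow adult replicate 1).

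GBPs rose in 7 of 8 cases in shallow adults and in 4 of 8 in deep adults, with none falling. Every deep-adult call was lost in several of the 12 alternatives: gene10932 in 7, gene10935 in 5, gene18985 in 5 and gene21949 in 8. In shallow adults gene21945 and gene27553 lost their calls in 6 each, and the other GBP calls there held in all 12. GBP4-like gene10935 had 136, 126 and 193 CPM in shallow adults, against 3.12, 14.6 and 2.6 CPM in control 60-day juveniles (4.47, SE 0.87, adjusted p = 0.000897), and 72.7, 85.5 and 26.3 CPM in deep adults, against 24.1, 6.28 and 4.42 CPM in translocated 60-day juveniles (2.41, SE 0.80, adjusted p = 0.0338). Without control replicate 2 the shallow-adult value of gene10935 was 5.73. The deep-adult call of gene10935 was lost without translocated replicate 2 (0.119) or 3 (0.122) or deep replicate 1 (0.0747) or 2 (0.0926). GBP6-like gene21946 had 10.4, 36.2 and 23.4 CPM in shallow adults and 3 counts in all control 60-day juveniles (ratio 625, 95% counting interval 214 to 3030, adjusted p = 0.00285). GBP4-like gene18985 had 23.2, 18.9 and 20.4 CPM in shallow adults, against 2.85, 5.27 and 4 CPM in control 60-day juveniles (2.37, SE 0.28, adjusted p = 9.53e-06).

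NF-kappa-B p105-like gene17453, the precursor of a DNA-binding subunit, had 778, 900 and 721 CPM in shallow adults, against 203, 207 and 230 CPM in control 60-day juveniles (1.91, SE 0.30, adjusted p = 0.000162). It had 889, 836 and 508 CPM in deep adults, against 254, 259 and 458 CPM in translocated 60-day juveniles (1.20, SE 0.30, adjusted p = 0.00699, and 0.0985 with only the 6 libraries fitted). The other p105-like gene (gene10345) was not called in either. A20-like gene7543 had 111, 130 and 115 CPM in shallow adults, against 22.5, 34.8 and 31.3 CPM in control 60-day juveniles (2.01, SE 0.54, adjusted p = 0.00888). MyD88-like gene17666 had 251, 279 and 282 CPM in shallow adults, against 138, 134 and 124 CPM in control 60-day juveniles (1.03, SE 0.16, adjusted p = 0.000108), and the 3 MyD88 genes were not called in deep adults.

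Of 89 TRAFs 31 rose and 6 fell in shallow adults, and 18 rose and 5 fell in deep adults. By name the shallow-adult calls were 9 higher and 4 lower of 20 TRAF3-like, 6 and 1 of 20 TRAF4-like, 6 and 1 of 19 TRAF6-like, 5 and 0 of 11 TRAF5-like and 4 and 0 of 14 TRAF2-like genes. TRAF5-like gene6921 had 29.1, 23.5 and 8.65 CPM in shallow adults, against 0.406, 0.94 and 0.519 CPM in control 60-day juveniles (5.01, SE 0.74, adjusted p = 7.35e-05), and 12.5, 28.4 and 36.6 CPM in deep adults, against 0.221, 0.763 and 0.606 CPM in translocated 60-day juveniles (5.60, SE 0.77, adjusted p = 4.84e-05). TRAF4-like gene21128 had 16.1, 6.44 and 4.69 CPM in shallow adults, against 0.203, 0.596 and 0.467 CPM in control 60-day juveniles (4.41, SE 0.72, adjusted p = 0.000194), and rose by 4.45 (SE 0.72, adjusted p = 0.00022) in deep adults, 5.57 without translocated replicate 2. TRAF3-like gene7677 had 487, 736 and 520 CPM in shallow adults, against 19.6, 27 and 2.13 CPM in control 60-day juveniles (5.15, SE 1.26, adjusted p = 0.00472), while deep adults held 159, 0.324 and 512 CPM. TRAF6-like gene635 rose in both, with 3.36, 86.3 and 11.8 CPM in shallow adults, against 0.644, 0.094 and 0 CPM in control 60-day juveniles (adjusted p = 0.00127), and 31.8, 27.1 and 2.27 CPM in deep adults, against 0.387, 0 and 0 CPM in translocated 60-day juveniles (adjusted p = 0.00215). The fitted log2 fold change of gene635 over control juveniles was 4.86 without shallow adult replicate 2 and 9.11 without control replicate 1.

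A pair of neighbouring TRAF3-like genes went the other way. TRAF3-like gene3408 had 0.028, 0.114 and 0.208 CPM in shallow adults, against 36.2, 22.2 and 24.8 CPM in control 60-day juveniles (−7.88, SE 1.48, adjusted p = 0.000672), and gene3407 0.0841, 0 and 0.903 CPM, against 30.4, 11.3 and 24.6 CPM (−6.12, SE 1.50, adjusted p = 0.00479). Without shallow adult replicate 3 these values were −8.51 and −8.86, and without shallow adult replicate 2 that of gene3407 was −5.51. Both were also low in deep adults, at no more than 0.486 and 1.46 CPM, and in translocated 60-day replicates 1 and 3, but at 27.1 and 24.4 CPM in translocated replicate 2. The call of gene3408 between deep adults and translocated 60-day juveniles (−5.39, SE 1.37, adjusted p = 0.00818) was lost without that library (0.941).

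Genes named after TNF were mixed, with 6 of 29 higher and 8 lower in shallow adults and 4 and 4 in deep adults. TNF receptor 14-like gene16284 rose in both, with 58.4, 91.8 and 63.6 CPM in shallow adults, against 6.84, 7.99 and 5.35 CPM in control 60-day juveniles (3.40, SE 0.47, adjusted p = 4.44e-05), and by 1.48 (SE 0.44, adjusted p = 0.0203) in deep adults, where the call was lost without translocated replicate 2 (0.095) or deep replicate 1 (0.0531). LITAF gene11470, which had risen from 8 to 60 days, fell in both, at 147, 173 and 141 CPM in shallow adults (−1.33, SE 0.23, adjusted p = 0.000363) and 113, 87.5 and 147 CPM in deep adults (−1.63, SE 0.23, adjusted p = 7.57e-05). TNF receptor 23-like gene17072 fell by 1.22 (SE 0.33, adjusted p = 0.00911) and 1.50 (SE 0.33, adjusted p = 0.00339). The lysosomal reductase GILT (gene4349), which in mammals helps to present antigens, had 243, 165 and 430 CPM in shallow adults, against 905, 721 and 922 CPM in control 60-day juveniles (−1.60, SE 0.37, adjusted p = 0.00354). IFI27-like gene18568 was the gene that changed in opposite directions, higher in shallow adults (1.39, SE 0.43, adjusted p = 0.0194, and 0.0882, 0.0864 or 0.0556 without control replicate 1, control replicate 3 or shallow adult replicate 3, and 2.08 on the log2 scale without control replicate 2) and lower in deep adults (−2.02, SE 0.44, adjusted p = 0.00273) than in the 60-day juveniles set against them.

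Among the 35 other genes of these routes 13 rose and 3 fell in shallow adults, where 16.7% and 14.7% of all genes rose and fell. In deep adults 5 of the 35 rose and none fell, where 12.9% and 10.9% of all genes rose and fell. TBK1-like gene6809, the kinase that STING engages in mammals, was at 48.3 ± 9.01 CPM in shallow adults and 15.3 ± 2.43 CPM in control 60-day juveniles (1.66, SE 0.28, adjusted p = 0.000286), and at 39.6 ± 18.6 CPM in deep adults and 17.5 ± 4.19 CPM in translocated 60-day juveniles (1.18, SE 0.28, adjusted p = 0.00519). The IKK alpha-like kinase gene21019, which frees NF-kappa-B, was at 14.8 ± 1.13 CPM in shallow adults and 4.26 ± 0.29 CPM in control 60-day juveniles (1.80, SE 0.26, adjusted p = 6.57e-05), and rose by 1.37 (SE 0.26, adjusted p = 0.000954) in deep adults.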

How the data were processed

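RNA was measured by poly(A) RNA sequencing of 24 libraries (500 ng total RNA, RIN above 7.7, with molecular identifiers added before amplification, per the labels' protocols). Per the submitters' processing notes, FastQC, MultiQC, cutadapt, Trimmomatic and DESeq2 were used; no source used here gives the aligner, counter, genome build or use of strand. The authors deposited unnormalised counts per gene in each library. For adults they also deposited their own log2 fold changes and adjusted p-values. A further 24 columns of per-library values were not used.

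Gene identifiers were joined to the product names of the annotated table, and the 182 genes and the lists of other route genes and markers were chosen with earlier results of these data known. In edgeR 4.0.16 (limma 3.58.1, R 4.3.3), genes passing filterByExpr over the 8 groups were scaled by TMM and fitted in 1 quasi-likelihood model of 8 group means with 16 residual degrees of freedom. Contrasts were 2-sided, with Benjamini-Hochberg adjustment over 25735 genes and a threshold of 0.05. CPM is the count per 1000000 of TMM-scaled library size. Fold changes are log2, the first-named group over the second. Where a group had no count, a fold is a bound against 3 counts per library, and with 1 to 3 counts a ratio has an exact 95% interval; both cover counting error only. Total counts were 13572866 to 35778913 per library. The procedure was also run on simulated counts, with changes set only in genes above a mean of 1 CPM. The outcome of that run is not reported here, and no result rests on it.

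The named genes are, in each comparison, the gene with the smallest p per role, up to 8 called genes per direction with the largest changes and at least 5 CPM in the higher group, genes called in 2 or more depth comparisons, and any STING, cGAS, IRF, NF-kappa-B or MyD88 gene. Genes taken for the largest changes also had to show no overlap between the libraries of the 2 groups. Their separation is thus part of the rule and not a result. Outside that rule, gene11610, gene15027, gene15029, gene21945, gene2453, gene26577, gene3400, gene7543 and the 2 untested genes were chosen after their values were seen, as were the values of some other genes in comparisons where the rule does not name them. Deep adults against translocated 60-day juveniles were compared after the other comparisons had been seen. Alternatives were DESeq2 size factors, no filter, a filter of at least 1 CPM in 3 libraries, the replicate number as a block, DESeq2 1.42.0, a fit of only the libraries compared, and leaving out each library in turn. Positions of genes come from RefSeq's order of protein-coding genes, with start coordinates used only to sort them. RefSeq held 157 of the 182 genes, 153 of them as protein-coding.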

Additional observations from a re-analysis of the deposited data

Results flagged for a closer look

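For 13 of the genes the depth difference itself was not the same in adults and in planulae (edgeR quasi-likelihood test of the difference, adjusted p under 0.05). Values below are the adult minus the planula depth difference on the log2 scale.

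For 5 of them the call was kept under all 18 alternatives. TRAF6-B-like gene11244 gave −3.07 (SE 0.44, adjusted p = 0.000404), its rise in deep planulae having no counterpart of that size in adults. NF-kappa-B inhibitor-interacting Ras-like gene1465 gave 1.40 (SE 0.32, adjusted p = 0.00957). IFI27-like gene18568 gave 2.67 (SE 0.61, adjusted p = 0.00901), being lower at 45 m in both stages and more so in planulae. TRAF6-like gene19608 gave −7.37 (SE 1.85, adjusted p = 0.0166) and GBP6-like gene21949 −9.46 (SE 2.18, adjusted p = 0.00934), where fitted sizes depend on the prior count because 1 group had 0 to 2 counts.

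With only the planula and adult libraries fitted, TNF receptor 16-like gene13490 (−1.25, SE 0.30, adjusted p = 0.0111) and STING-like gene6986 (2.47, SE 0.53, adjusted p = 0.00632) were not called (0.0582 and 0.0537). Gene6986 was lower in deep than in shallow planulae, but had 1.47, 5.87 and 2.84 CPM in deep adults and 1.29, 1.85 and 1.42 CPM in shallow adults.

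The other 6 lost their calls when any of several single libraries was left out. They were the TNF-like ligand gene11610 (3.53, SE 1.11, adjusted p = 0.0421), TRAF3-like gene19834 (−2.77, SE 0.83, adjusted p = 0.0347), TRAF2-like gene20003 (2.32, SE 0.70, adjusted p = 0.0347), TRAF2-like gene20005 (−2.27, SE 0.64, adjusted p = 0.026), cGAS-like gene3781 (1.25, SE 0.35, adjusted p = 0.0239) and A20-like gene7543 (−2.30, SE 0.75, adjusted p = 0.0485, and 0.277 without deep planula replicate 3). Gene3781 was called between the depths in neither stage, with 83.6, 60.9 and 122 CPM in deep adults and 46.1, 62.5 and 63.3 CPM in shallow adults, and 75, 81.9 and 88.4 CPM in deep planulae and 112, 138 and 127 CPM in shallow planulae.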

How the results depend on the processing

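Counts of called genes moved by over 1.5 times as follows. With DESeq2 they were 28 between adults of the depths, 13 for translocation at 60 days, 14 and 19 from 8 to 60 days in control and translocated juveniles, 24 for the adult minus planula depth difference and 1 for the 60-day minus 8-day translocation difference. With DESeq2 size factors in edgeR the translocation count at 60 days was 2. With only the libraries compared fitted, the counts were 3 between adults, 0 for translocation at 60 days, 16 and 6 from 8 to 60 days in control and translocated juveniles, 18 for deep adults against translocated 60-day juveniles and 5 for the adult minus planula difference. Leaving out 1 library gave 9 to 16 between adults, 1 to 4 for translocation at 60 days, 4 to 6 and 5 to 11 from 8 to 60 days in control and translocated juveniles, 32 to 61 for deep adults against translocated 60-day juveniles, 8 to 18 for the adult minus planula difference and 0 to 1 (1 without translocated 60-day replicate 2) for the translocation difference. It gave 26 to 33 between planulae, 48 to 54 from shallow planulae to control 8-day juveniles and 64 to 73 from control 60-day juveniles to shallow adults, within 1.5 times of the full counts.

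The labels give a shared replicate number, and same-numbered libraries deviated together with correlations of −0.136 to 0.196, so the numbers were not taken to pair the samples. Sample descriptions of planulae and juveniles also carry letters that recur across groups and that the numbers do not always follow. Pairing by letter was not tested. With the replicate number as a block the counts were 33 between planulae, 13 between adults, 0 and 1 for translocation at 8 and 60 days, and 83 and 48 for the steps to shallow and to deep adults. The 150 results for single genes kept direction and call in 1542 alternatives, kept direction but lost the call in 252 and reversed in 0. Alternatives in which a gene was filtered out or had no adjusted p were left out of these counts. In every alternative that gave an adjusted p, 79 of the 150 were called. With 3 libraries a group, and genes under about 1 CPM resting on few reads, a difference that was not called may be one not detectable at this depth. The causes of these changes were not tested.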

Other observations

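Single libraries of 1 group could differ widely in these genes. In 21 of the 182 genes, 11 of them TRAFs, the 3 libraries of a group spanned at least 20-fold with the highest at 5 CPM or more. TRAFs are 91 of the 182 genes. The same count was not made over all genes, so it does not set these genes apart. Such groups were met 6 times in translocated 60-day juveniles, 4 times in control 60-day juveniles, and 7 times each in deep and in shallow adults, and in no planula or 8-day group. IFI27-like gene18561 had 0.0544, 0.0405 and 55.7 CPM in deep adults and 0.112, 83 and 0.486 CPM in shallow adults. TRAF6-like gene24545 had 0.308, 0.485 and 275 CPM in shallow adults. The cGAS-like gene21213 had 14.6, 0.0405 and 9.75 CPM in deep adults. These genes were named after their values were seen.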
